A study of Mus musculus with 5 samples.

Results

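The clustered protocadherins are 3 neighbouring gene clusters on mouse chromosome 18, alpha (Pcdha), beta (Pcdhb) and gamma (Pcdhg). Their members were taken as the protein-coding GENCODE models on that chromosome whose symbols start with Pcdha, Pcdhb or Pcdhg, which gave 24 of 22380 coding genes. Because the annotation joins almost all alpha isoforms into 1 model named Pcdha11 and all annotated gamma isoforms into 1 model named Pcdhgc5, the 24 models were resolved into 58 variable exons, 14 alpha, 22 beta and 22 gamma. Of these, 40 have an annotated start; the other 18 were located by their open reading frames. Engaged RNA polymerase had been mapped by GRO-seq, in which nuclei extend nascent transcripts with a brominated nucleotide and the labelled RNA is captured and sequenced with its strand. The MESC group held 3 samples of V6.5 mouse embryonic stem cells (C57Bl/6(f) x 129/Sv(m), passages 12 to 14), kept with LIF on irradiated feeder cells. The MEF group held 2 samples of embryonic fibroblasts from a male embryo of the same cross at E13.5, at passage 2, cultured without LIF. The labels name no transgene or deletion in either group.

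Clustered protocadherins are cell-surface adhesion proteins of the cadherin superfamily that give neurons individual surface identities. Each variable exon encodes an ectodomain and has its own promoter. In the alpha and gamma clusters a chosen variable exon is spliced to shared constant exons downstream, whereas each beta gene is a single coding exon. In neurons the choice of promoter is largely stochastic for most members, and it involves the insulator protein CTCF, cohesin, DNA methylation and antisense transcription. The C-type members (Pcdhac1, Pcdhac2, Pcdhgc3, Pcdhgc4 and Pcdhgc5) lie at the 3′ ends of the alpha and gamma variable arrays and are regulated differently from the others.

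The reads of each cell type had been pooled, 8616592 in MESC and 6583644 in MEF, so there is 1 library per cell type, no replicate check and no test between cell types. Ratios below are ratios of read density scaled to reads outside the mitochondrial genome, with exact conditional 95% intervals. Those intervals cover counting error only, since the pooled reads carry no measure of variation between samples. They may be too narrow even for that, because reads without a molecular identifier need not come from separate molecules. The intergenic background on each strand was 0.187 reads per kb for MESC and 0.11 for MEF. The median coding gene had a log2 MEF/MESC ratio of -0.25, and ratios relative to that median are given where they bear on a direction. All 5 stem-cell markers exceeded their MEF density at least 4-fold in MESC. Of 8 fibroblast markers with enough reads, 7 were that far apart toward MEF, so both libraries carried the markers of their labels. The 9 fibroblast markers together had 420 reads in MESC and 15197 in MEF (47.2-fold higher density in MEF). The part of the feeder cells in the MESC values was not tested. In these pooled cells, fewer cells transcribing a gene and less transcription per cell cannot be told apart.

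The gamma cluster was transcribed along its whole length in both cell types. The alpha and beta spans were far less dense, though above background on the sense strand. Over the gamma span (mm9, chromosome 18, 37833989 to 38001527) 1279 sense reads lay in MESC and 1150 in MEF, or 0.891 and 1.04 RPKM (reads per kb, scaled to library size). This was 40.8 times the intergenic background in MESC and 62.4 times in MEF. The alpha span (37089939 to 37347311) held 128 and 72 sense reads, and the beta span (37424652 to 37681073) 98 and 144, between 2.04 and 5.1 times background. Per kb of variable exon, gamma density exceeded alpha density 8.7-fold (6.4 to 12.1) in MESC and 19.7-fold (11.4 to 37.3) in MEF. It exceeded beta density 14.4-fold (10.5 to 20.2) and 8.2-fold (6.07 to 11.3). Among the spans of coding genes, gamma stood at percentile 66.8 of density in MESC and 72.7 in MEF, and alpha and beta between percentiles 32.3 and 41.3.

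**Figure D1:**
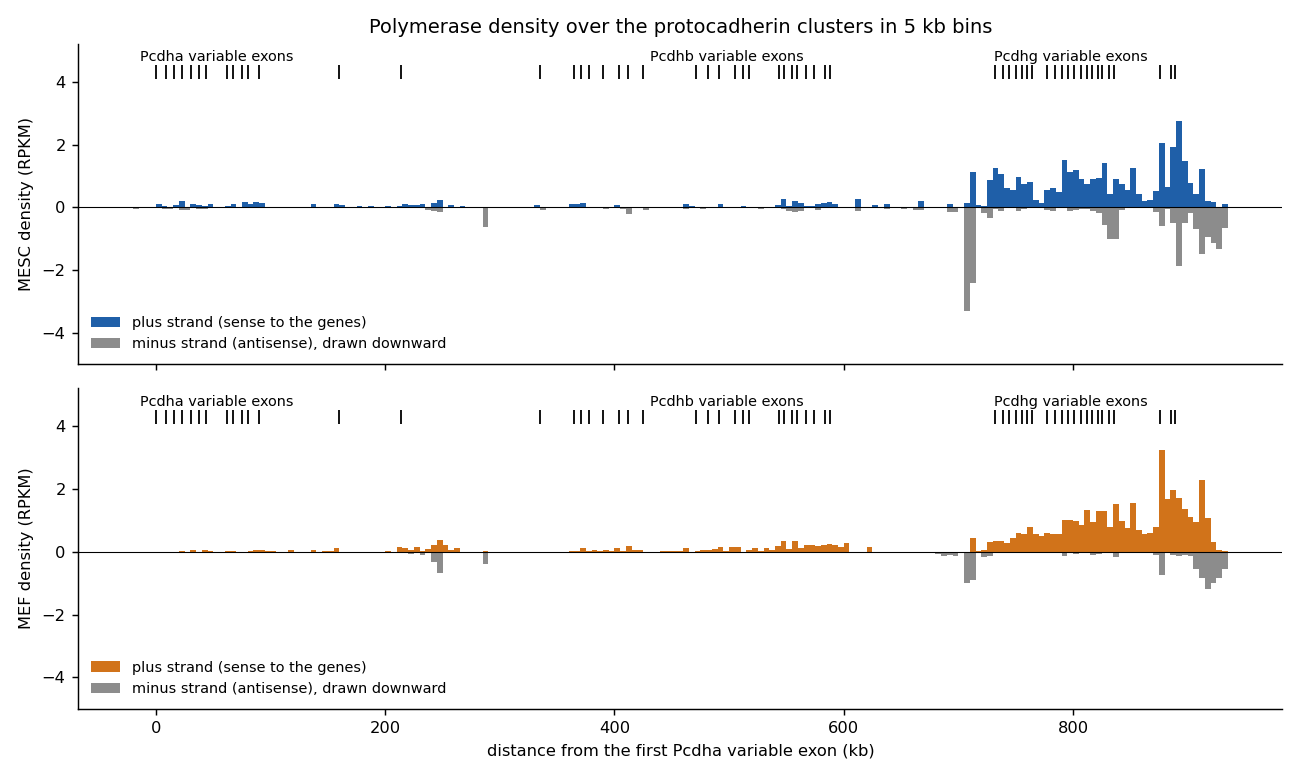
Read density in 5 kb bins (RPKM, vertical axis) against distance from the first Pcdha variable exon (kb), with the plus strand upward, the minus strand downward and black ticks at the 58 variable exons. MESC is above and MEF below; dense sense signal covers the gamma cluster in both, and the alpha and beta clusters show only scattered reads.

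Between the cell types the 3 clusters differed in direction, and all 3 differences were small. The beta span was 1.92-fold denser in MEF (1.47 to 2.5), and 2.28-fold (1.76 to 2.98) relative to the median gene. The gamma span was 1.17-fold denser in MEF (1.08 to 1.27), and 1.4-fold (1.29 to 1.51) relative to the median gene. The alpha span was 1.36-fold denser in MESC (1.01 to 1.85); relative to the median gene its MEF/MESC ratio was 0.874, with an interval (0.646 to 1.18) that holds 1. Neither the joint alpha model nor the joint gamma model was 4-fold apart over its whole length. Among all coding models deep enough to compare (50 reads or more in 1 library), 5.21% were 4-fold or more denser in MEF and 7.09% in MESC.

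Within the gamma cluster the cell types differed in where transcription was dense. The cluster was cut into 22 segments, each running from 1 variable exon to the next, the last to the first constant exon. At the 5′ end, the segment of Pcdhga1 held 64 reads in MESC (1.04 RPKM) and 13 in MEF (0.276 RPKM), 3.77-fold denser in MESC (2.06 to 7.47). The next segments, Pcdhga2 and Pcdhga3, held 29 and 38 reads in MESC and 12 and 15 in MEF. Toward the 3′ end, at Pcdhga12 and Pcdhgc3, the order was the opposite, though not in the last segments, Pcdhgc4 and Pcdhgc5. The long segment that follows Pcdhga12 held 232 reads in MESC (0.669 RPKM) and 279 in MEF (1.05 RPKM), 1.57-fold denser in MEF (1.31 to 1.88). The segment of Pcdhgc3 held 95 and 129 reads, 1.23 and 2.18 RPKM, 1.77-fold denser in MEF (1.35 to 2.33).

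In MEF, the lowest segment was Pcdhga1 at 0.276 RPKM and the highest Pcdhgc3 at 2.18. In MESC these 2 segments were at 1.04 and 1.23, the lowest segment was Pcdhga5 at 0.357 RPKM and the highest was Pcdhgc5 at 2.68. The rank correlation of segment order with density was 0.90 in MEF and 0.40 in MESC, and that of order with the log2 MEF/MESC ratio was 0.54. These describe 22 adjacent segments of 1 locus within the same libraries, which are not independent points. Ratios between 2 stretches do not depend on the scaling. The stretch from Pcdhga1 to Pcdhga7 held 329 and 199 reads, or 5.61 per kb in MESC and 3.4 in MEF. That between the end of the Pcdhga12 exon and Pcdhgc3 held 185 and 217, or 4.89 and 5.73 per kb. From the first to the second, density thus fell in MESC and rose in MEF. The MEF change relative to the MESC change was 1.94-fold (1.48 to 2.55). This relative change was 1.35-fold (1 to 1.82) from the segments of Pcdhga4 to Pcdhga7, without the first 4 segments, to that of Pcdhga12. The latter interval reaches 1. Both pairs of stretches were chosen with the densities known and are descriptions. The stretch from Pcdhga1 to Pcdhga7 as a whole was 1.27-fold denser in MESC by total reads (1.06 to 1.52), and relative to the median gene its MEF/MESC ratio was 0.94 (0.785 to 1.12).

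Of the 22 segments, 4 had intervals wholly above 1 toward MEF (Pcdhga5, Pcdhga9, Pcdhga12 and Pcdhgc3) and 4 wholly toward MESC (Pcdhga1, Pcdhga3, Pcdhgb4 and Pcdhgc5). Relative to the median gene these counts were 5 and 1, and the segment left toward MESC was Pcdhga1. Pcdhgc5, whose segment held 123 reads in MESC and 61 in MEF, was 1.55-fold denser in MESC by total reads (1.13 to 2.14), and its MEF/MESC ratio relative to the median gene was 0.771 (0.558 to 1.06). Pcdhgc4, between the other C-type exons, held 61 and 48 reads and a ratio of 1.03 (0.688 to 1.52). The Pcdhga5 segment encloses the small nucleolar RNA SNORA40, which took 1 read in each library, and without it the segment was still 1.85-fold denser in MEF (1.2 to 2.89). Beyond the last variable exon the constant part held 143 and 145 sense reads.

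**Figure D2:**
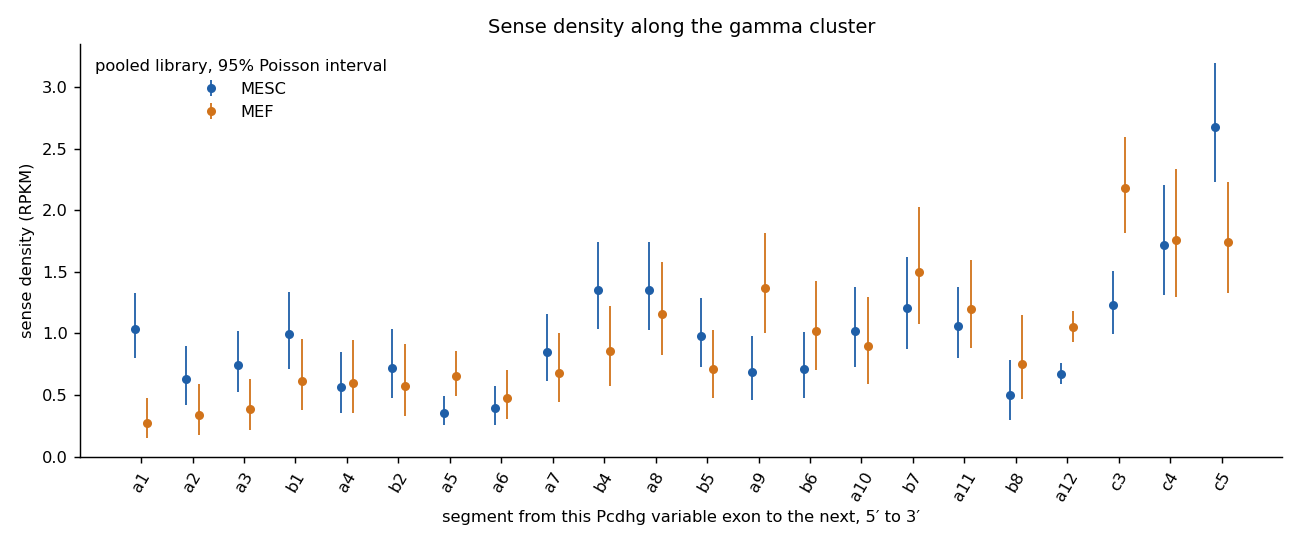
Sense density (RPKM, vertical axis) in the 22 segments of the gamma cluster in 5′ to 3′ order, with points for the pooled MESC and MEF libraries and bars for 95% Poisson intervals. MEF starts at 0.276 and peaks at 2.18 at Pcdhgc3 (c3), whereas MESC is at 1.04 in the first segment and peaks at 2.68 in the last.

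By exon, all 22 gamma variable exons carried sense reads in both libraries, and all 22 were above background in both. MESC exons ranged from 11 to 50 reads with a median of 25, and MEF exons from 5 to 55 with a median of 17.5. The gamma a and gamma b subfamilies are interleaved along the array. In MESC they had 1.12 and 1.28 RPKM over their exons, and in MEF 0.93 and 1.04. The 3 C-type exons were denser, at 2.02 RPKM in MESC and 2.11 in MEF. By reads, Pcdhgc3 led in both libraries with 50 and 55 over its exon. By density it led in MEF (3.2 RPKM), and in MESC Pcdhgb4 (2.25 RPKM) stood beside it (2.23 RPKM). Pcdhga1 had 29 reads in MESC and 5 in MEF over the exon. Pcdhga12 had 27 and 32.

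Pcdhgc3 was the member with the plainest start. The window from 50 bp before to 300 bp after its start held 30 sense reads in MESC and 35 in MEF, a ratio of 1.52 whose interval (0.908 to 2.57) holds 1. Its start window was 5.13 times as dense as the rest of its exon in MESC (3.09 to 8.42) and 4.81 times in MEF (3.04 to 7.54). Its neighbours Pcdhgc4 and Pcdhgc5 had 3 and 6 start reads in MESC and 4 and 9 in MEF. At Pcdhgc5 the start window was 3.31 times as dense as the rest of the exon in MEF (1.32 to 7.68) and 0.998 times in MESC (0.347 to 2.36), and at Pcdhgc4 neither library had a ratio above 1. The other annotated gamma starts with the most reads were Pcdhga8 and Pcdhga11 in MESC, with 10 each against 4 and 3 in MEF, and Pcdhgb6 in MEF, with 9 against 7 in MESC. Over the 8 annotated gamma starts without Pcdhgc3, the start windows were 1.47 times as dense as the rest of the exons in MESC (1.06 to 1.99) and 1.41 times in MEF (0.963 to 2.02).

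Among gamma exons without an annotated start, the window around the first codon held most MESC reads at Pcdhga1 (16, and 2 in MEF) and Pcdhga7 (14, and 2 in MEF). In MEF it held most at Pcdhgb5 (5, and 9 in MESC). Over these 13 exons, the 200 bp before the first codon, where an unannotated start would lie, held 77 sense reads in MESC and 33 in MEF. Pcdhga2 had 19 and 5 of these and Pcdhga4 had 10 and 1, whereas Pcdhga6 (1 and 7) and Pcdhgb8 (2 and 8) had more in MEF.

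Only Pcdhgc3 among the 40 annotated starts reached the 20 reads needed for a comparison, and 0 members were called at least 4-fold apart. For the starts of all coding genes the shares called were 2.81% toward MEF and 6.3% toward MESC. With 1 of 40 starts deep enough, a 4-fold difference at single starts was mostly not detectable at this depth.

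**Figure D3:**
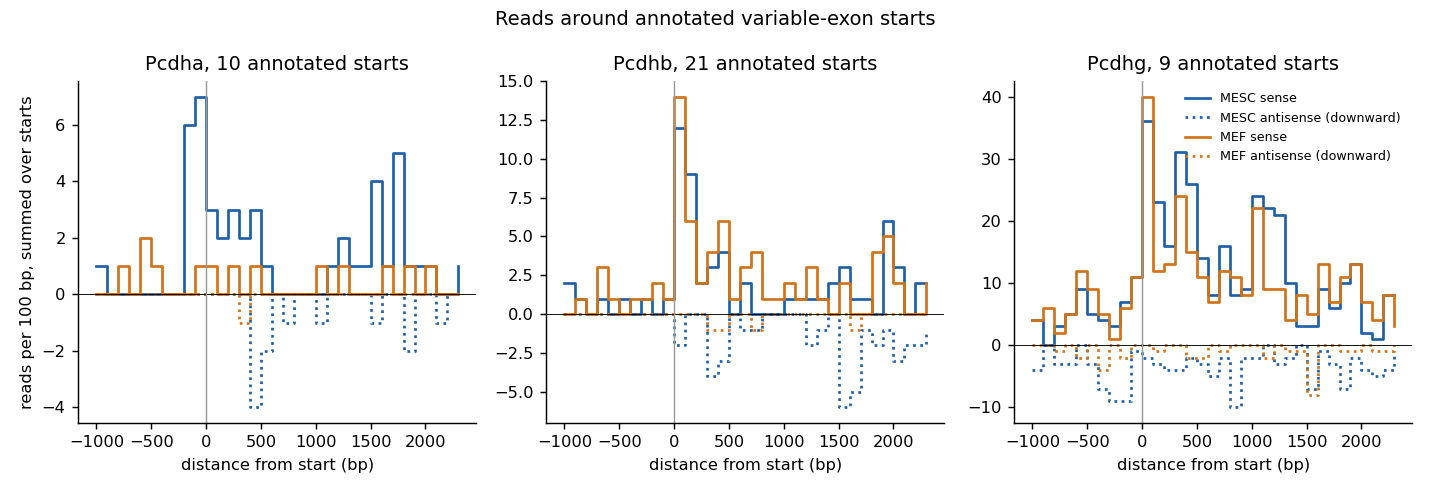
Reads per 100 bp (vertical axis) around annotated variable-exon starts, summed over the 10 alpha, 21 beta and 9 gamma starts, against distance from the start (bp); solid lines are sense and dotted lines antisense, drawn downward. Beta and gamma sense reads peak in the first 100 bp in both libraries (12 and 14 reads for beta, 36 and 40 for gamma), and alpha reads in MESC peak just before the annotated starts.

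The alpha cluster was transcribed at a low level that was split by position. Over the 5′ array of exons Pcdha1 to Pcdha12 the MESC library held 64 sense reads and the MEF library 13, 3.77-fold denser in MESC (2.06 to 7.47). That stretch was 3.7 times background in MESC and 1.28 times in MEF. From the first to the last constant exon at the 3′ end the order was the reverse, with 24 reads in MESC and 35 in MEF, 1.9-fold denser in MEF (1.1 to 3.34). That stretch is mostly intron; the constant exons themselves held 1 read in each library. Outside the noncoding RNA gene Gm10544, which lies within it on the other strand, it held 14 and 19 sense reads, a ratio of 1.77 whose interval (0.842 to 3.82) holds 1. Both directions held relative to the median gene, at MEF/MESC ratios of 0.316 (0.16 to 0.579) and 2.27 (1.31 to 3.98).

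Over the 14 alpha exons themselves there were 44 sense reads in MESC and 13 in MEF, 2.59-fold denser in MESC (1.37 to 5.25). In MESC 13 exons had reads, with a median of 3 and a maximum of 7 at Pcdha10, which had 0 in MEF. In MEF 7 of the 14 exons had no read, and the maximum was 4, at Pcdhac2. By the lower limit of their Poisson interval, 9 of the 14 exons were above background in MESC and 2 in MEF. The exons with reads were spread over the array, and no single isoform stood out in either library. Across the 14 exons the rank correlation between the libraries was 0.07, at counts too low to read an order from.

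Over the exons of the C-type alpha members there were 7 sense reads in MESC and 5 in MEF (0.162 and 0.151 RPKM), and over the other 12 alpha exons 37 and 8 (0.148 and 0.0416 RPKM). Pcdhac1 had 5 start reads in MESC and 1 in MEF, and Pcdhac2 had 1 and 0. Pcdha9 had 3 and 0 and Pcdha12 had 0 and 1, which completes the alpha members with the most reads at their starts. Of the 10 annotated alpha starts, 9 coincide with the first codon. Upstream of the start windows, from 200 to 51 bp before the 10 starts, a further 9 sense reads lay in MESC and 1 in MEF, against 12 and 2 in the start windows. Pcdha4 alone had 5 and 1 of those upstream reads.

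Sense reads over the beta genes were few in both libraries, and the MEF excess over the span did not reach its 5′ end. Of the 22 beta exons, 7 in MESC and 9 in MEF were above background by the lower limit of their Poisson interval. The stretch from Pcdhb1 to Pcdhb3 held 21 sense reads in MESC and 7 in MEF, a ratio of 2.3 toward MESC whose interval (0.942 to 6.4) holds 1. From Pcdhb4 to the end of the cluster there were 77 and 137, 2.32-fold denser in MEF (1.74 to 3.11). Within it, the 166091 bp from Pcdhb4 to Pcdhb14 held 27 reads in MESC, a density below background, and 67 in MEF. From Pcdhb1 to Pcdhb14 the span held 48 sense reads in MESC and 74 in MEF, and from Pcdhb15 to Pcdhb22 it held 50 and 70. The ratios were 2.01 (1.38 to 2.96) and 1.83 (1.25 to 2.68) toward MEF. The 3′ stretch, where the genes lie close together, was denser in both libraries, at 5.58 times background in MESC and 13.3 times in MEF against 1.23 and 3.22 times in the 5′ stretch. Over the 22 exons alone, 41 and 48 reads gave a ratio of 1.53, with an interval (0.986 to 2.38) that holds 1.

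No beta gene reached the 50 reads needed for a comparison, so 0 of 21 was called in either direction. The most reads over an annotated gene were 11 in MEF, at Pcdhb16 (9 in MESC) and Pcdhb19 (3 in MESC). The Pcdhb19 ratio was 4.78 toward MEF (1.26 to 26.7). Pcdhb12 had 0 reads in MESC and 5 in MEF. At the ends of the cluster, Pcdhb1 had 4 reads in MESC and 0 in MEF, and Pcdhb22 had 4 and 4.

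Reads were nonetheless gathered at beta starts. The 21 annotated starts together held 23 sense reads in MESC and 22 in MEF, and these windows were 4.32 times as dense as the rest of the exons in MESC (2.43 to 7.55) and 3.27 times in MEF (1.86 to 5.59). Of the 3 starts with the most reads in each library, 1, Pcdhb16, was shared. In MESC they were Pcdhb16 with 6, Pcdhb2 with 5 and Pcdhb1 with 3. In MEF they were Pcdhb19 with 5, Pcdhb16 with 4 and Pcdhb7 with 3. Pcdhb2 had 1 start read in MEF, Pcdhb19 had 1 in MESC, and Pcdhb1 in MEF and Pcdhb7 in MESC had 0. Counts of this size do not separate the libraries at any single start.

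**Figure D4:**
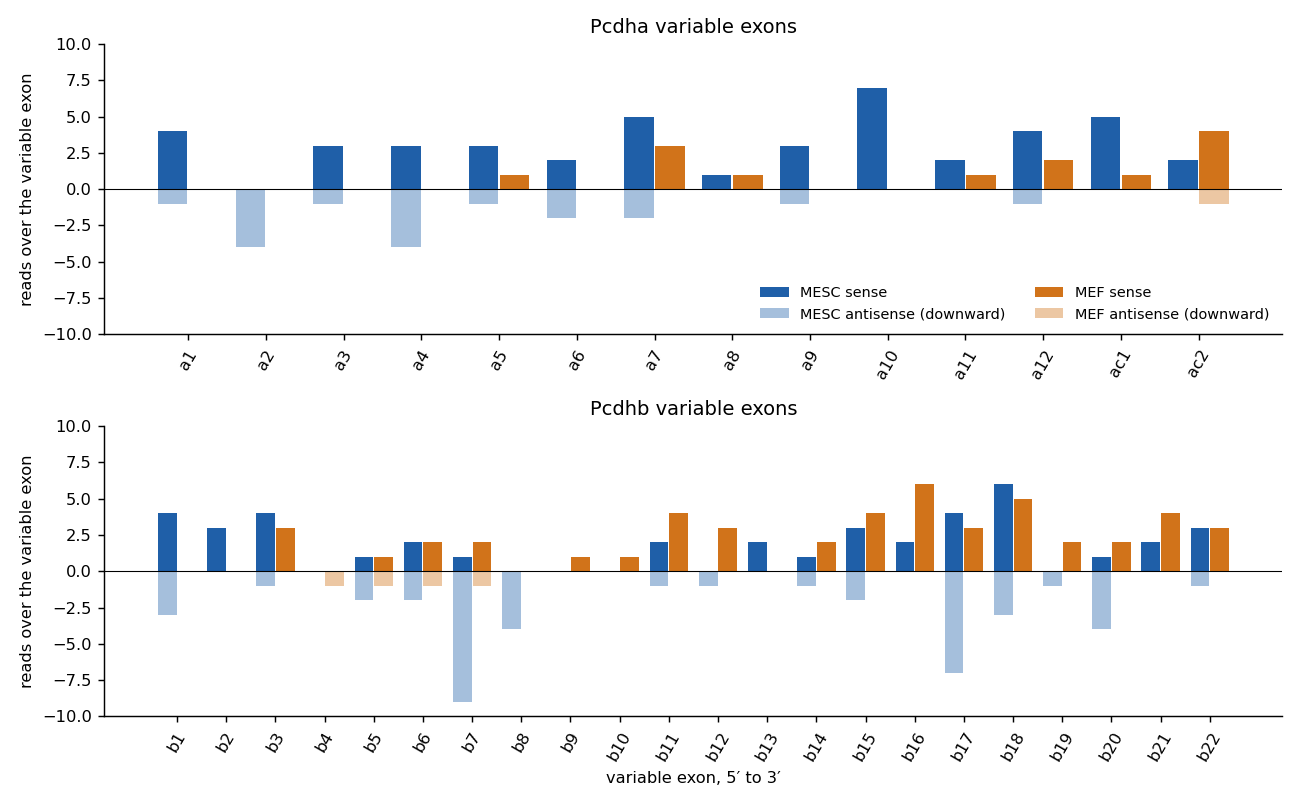
Reads over each alpha and beta variable exon (vertical axis), sense upward and antisense downward in a lighter shade, for MESC (blue) and MEF (orange). No exon has more than 7 sense reads; the antisense reads are almost all MESC, up to 9 at Pcdhb7.

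The libraries also differed on the antisense strand. Over the variable exons, antisense reads numbered 17 in MESC and 1 in MEF for alpha, 42 and 4 for beta, and 160 and 37 for gamma. The MESC excess was 8.05-fold for beta (2.92 to 30.9) and 3.32-fold for gamma (2.31 to 4.88). By whole span the MESC excess was 4.25-fold for beta (2.22 to 8.96) and 2.96-fold for gamma (2.36 to 3.75). For alpha the MESC/MEF ratio was 0.711, with an interval (0.445 to 1.13) that holds 1. Whole coding models that overlap no other gene were compared where they held at least 20 antisense reads in 1 library. Of these, 14.8% were 4-fold or more denser in antisense reads in MESC and 6.46% in MEF. Over the whole spans, the antisense share of reads in beta was 38.4% in MESC (61 of its reads, 30.8% to 46.4%) and 7.1% in MEF (11 reads, 3.6% to 12.3%), or 2.94% in MEF with only reads whose first bases occur once in the genome. In gamma it was 22.5% (20.5% to 24.6%) and 7.7% (6.29% to 9.33%). In alpha it was 22.9% in MESC (16.7% to 30%) and 36.3% in MEF (27.4% to 45.9%), with intervals that overlap. Antisense density over the beta span was 1.27 times background in MESC and 0.39 times in MEF. Over alpha it was 0.789 and 1.45 times, and over gamma 11.8 and 5.21 times. The alpha and beta shares thus rest on few reads on both strands. For comparison, over coding models that overlap no other gene the pooled share was 9.87% in MESC and 9.4% in MEF. The MESC shares of beta and gamma stood at percentiles 88.5 and 80.2 of those models, and the MEF shares at 61.5 and 63.2. The alpha share stood at percentile 80.6 in MESC and 88.3 in MEF. The 3 spans are unlike those models, so these percentiles are a loose comparison. Gamma holds the minus-strand gene Gm16882, with 123 of the 371 antisense reads in MESC. Alpha holds the minus-strand genes Gm10544, with 34 of the 41 antisense reads in MEF, and Gm10545. The beta span joins 21 gene models and the DNA between them.

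In beta, the stretch from Pcdhb15 to Pcdhb22 held 25 antisense reads in MESC and 1 in MEF, a ratio of 19.2 (3.14 to 787), and the stretch from Pcdhb1 to Pcdhb14 held 36 and 10, a ratio of 2.76 (1.34 to 6.24). The exons with the most were Pcdhb7 with 9 and 1 and Pcdhb17 with 7 and 0. Alpha was split by position on this strand too. The array from Pcdha1 to Pcdha12 held 20 antisense reads in MESC and 1 in MEF. The constant part held 16 and 36, 2.93-fold denser in MEF (1.59 to 5.66), where the long noncoding RNA gene Gm10544 (37319509 to 37338176) is annotated on the minus strand. Over Gm10544 itself the minus strand held 14 reads in MESC and 34 in MEF, 3.17-fold denser in MEF (1.66 to 6.39).

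In gamma, antisense reads were gathered in 4 places. Over the annotated minus-strand noncoding RNA gene Gm16882 (37906213 to 37927896), which runs from the Pcdhga12 exon back to Pcdhga10, MESC had 123 reads and MEF 11, 8.57-fold denser in MESC (4.63 to 17.6). From the Pcdhgc5 start to 10 kb before the end of the span, where the annotation used here has no minus-strand gene, it had 109 and 10, 8.36-fold denser in MESC (4.37 to 17.9). From 2 kb before Pcdhgc3 to Pcdhgc5 the counts were 46 and 28, and the ratio of 1.26 had an interval (0.771 to 2.09) that holds 1. In the last 10 kb they were 50 and 33; the next gene downstream, Diap1, is on the minus strand and had 912 and 448 reads. Without those 10 kb the antisense share of gamma was 20.9% in MESC (18.9% to 23%) and 5.59% in MEF (4.32% to 7.1%).

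In 5 kb bins, the gamma antisense strand had 8 bins with at least 20 reads in 1 library, of which 5 were called toward MESC, at 4-fold or more, and 0 toward MEF. The 5 became 3 or 2 when the MESC reads of 35 or of 36 bases were used alone. Over all bins of the genome with that many reads, 10.7% were called toward MESC and 9.04% toward MEF. Those bins take both strands, sense and antisense together, and a share for antisense bins alone was not computed. The highest gamma antisense bin was that at Pcdhgc5 (37978989 to 37983988), with 77 reads in MESC, at 65 distinct positions, and 2 in MEF. The 3 called bins over Gm16882 held 51, 36 and 23 reads in MESC and 6, 0 and 0 in MEF, with at least 9.2-fold and at least 5.88-fold for the bins at 0 against a floor of 3 reads per library. By contrast, 30 gamma sense bins were deep enough and 0 were called. The alpha antisense strand had 1 bin deep enough, inside Gm10544, with 7 and 22 reads, and it was called toward MEF (4.1-fold).

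**Figure D5:**
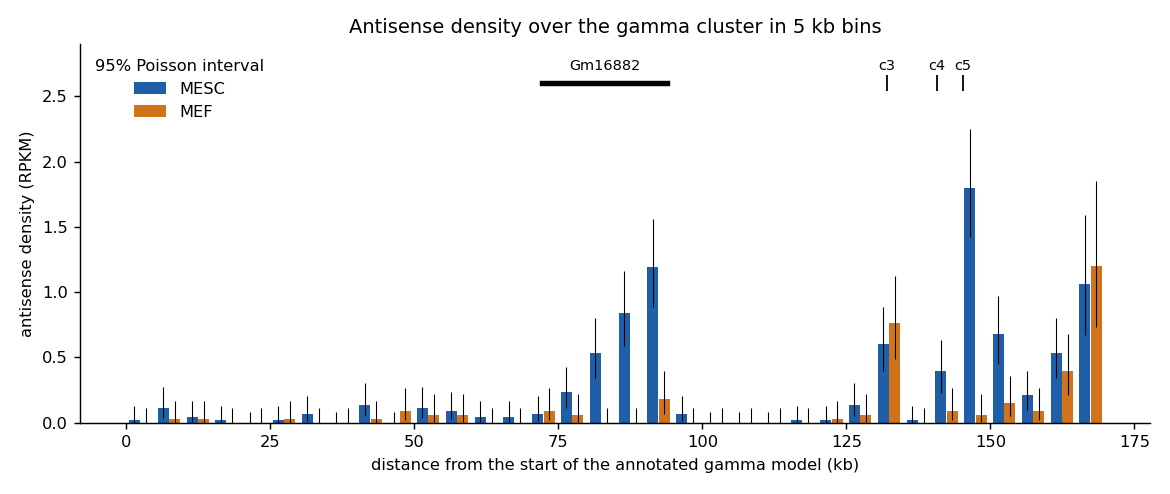
Antisense density (RPKM, vertical axis) in 5 kb bins against distance from the start of the annotated gamma model (kb), with 95% Poisson intervals, the extent of Gm16882 and the starts of Pcdhgc3, Pcdhgc4 and Pcdhgc5 (c3 to c5). MESC exceeds MEF over Gm16882 and beside c5, and the libraries overlap at c3 and at the 3′ end.

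Antisense reads also lay upstream of gamma starts. In the 500 bp before the 9 annotated gamma starts there were 29 antisense reads in MESC and 6 in MEF, and all 6 of the latter and 13 of the former were at Pcdhgc3. The windows before Pcdhga11 and Pcdhga12 lie inside Gm16882, so any reads there were already counted over that gene. Windows of the same length before the 10 alpha and 21 beta starts held 0 reads in either library. Between the alpha and beta clusters, the 1 kb with the most minus-strand reads (37376894 to 37377893) was picked from both libraries together. It has no annotated gene and held 27 minus-strand reads in MESC, at 17 positions, and 13 in MEF, at 12 positions. Plus-strand reads there were 0 in both libraries, and the minus-strand ratio was 1.59 toward MESC (0.794 to 3.36).

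Just upstream of the gamma cluster, plus-strand counts were higher in MESC too, as at Pcdhga1. Plus-strand reads in the 2 kb before the start of Taf7, a minus-strand gene of a general transcription factor subunit, numbered 47 in MESC and 14 in MEF. The plus-strand gene 3222401L13Rik had 23 and 7, and the 1 kb before the Pcdhga1 frame had 17 and 5. Between these, the stretch from 2 kb before Taf7 to 3222401L13Rik held 14 and 2 reads. Taf7 itself had 96 and 30 reads, and Slc25a2, a mitochondrial carrier gene on its other side, had 52 and 12.

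Of 16 genes known to act on these clusters, all deep enough to compare, 0 were called toward MEF and 1 toward MESC at 4-fold, a share near the 5.21% and 7.09% of all coding models. The intervals of 12 lay wholly toward MESC by total reads and that of 1 toward MEF. Relative to the median gene, 10 lay wholly toward MESC and 4 toward MEF. The median log2 MEF/MESC ratio of the 16 genes was -0.50 against -0.25 for all coding genes. The 1 gene called toward MESC was Dnmt3b, a de novo DNA methyltransferase. It had 1259 reads in MESC and 45 in MEF, 21.4-fold denser in MESC (15.9 to 29.6). The next largest ratios were those of Rest, a repressor of neuronal genes (758 and 241 reads, 2.41-fold), Wiz, a zinc finger protein (376 and 161, 1.79-fold), and Ctcf (843 and 385, 1.68-fold), all toward MESC. Smchd1, a chromatin protein known to silence the clusters, had 1136 and 738 reads, a ratio of 1.18 toward MESC (1.07 to 1.3) that is close to the median gene.

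The non-clustered protocadherins, single genes of the same superfamily elsewhere in the genome, number 12 here. Of these, 8 had enough reads, 4 were called toward MEF and 1 toward MESC, against 5.21% and 7.09% of all coding models, with a median log2 ratio of 1.55. Pcdh18 had 42 reads in MESC and 280 in MEF (8.7-fold, 6.27 to 12.3), and Pcdh7, with 158 and 692, and Pcdh9, with 85 and 372, were both 5.71-fold higher in MEF. Pcdh1, which also lies on chromosome 18 beyond the gamma cluster, had 325 and 29 reads, 8.59-fold higher in MESC (5.87 to 13). Of the neural markers, 5 had enough reads, and 2 of these were called toward MESC, with 736 and 61 reads at Stmn2 and 131 and 22 at Elavl3. Rbfox3 also lay toward MESC (102 and 27 reads, 2.9-fold, 1.88 to 4.61), and Syp, with 66 and 42, had an interval that holds 1. Tubb3 ran the other way, with 83 and 90 reads (1.41-fold toward MEF, 1.04 to 1.93). The median log2 MEF/MESC ratio of those with enough reads was -1.53. Below the minimum of 50 reads, Snap25 (42 and 6) and Nefl (33 and 1) lay toward MESC and Dcx (1 and 38) toward MEF. The part of the neural markers in the MESC values of the clusters was not tested.

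The base composition of the starts overlapped between the 3 clusters. From 250 bp before to 50 bp after the start, the observed over expected CpG ratio had a median of 0.689 at the 10 annotated alpha starts (0.351 to 0.927), 0.426 at the 21 beta starts (0.21 to 0.851) and 0.434 at the 9 gamma starts (0 to 0.875), against 0.534 over 22380 coding starts. Pcdhgc3, the member with the most start reads, had 0.875, at percentile 81.8 of coding starts and the highest of the annotated gamma starts. Over the variable exons the medians were 0.66, 0.438 and 0.536. The exons are close relatives of each other: the share of 32-base words found once in the genome ranged from 63.2% to 100% over alpha exons, from 70.2% to 100% over beta exons and from 76.3% to 100% over gamma exons. How reads with several matches had been placed is not given in the sources used here, so single-exon counts of close relatives are uncertain. Of the reads in the 3 spans, 93.9% in MESC and 94.4% in MEF began with a word found once.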

How the data were processed

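Run-on RNA of 3 MESC and 2 MEF samples was sequenced. The authors aligned the reads with eland to mm9 and removed reads in regions resembling rRNA, per the series' design text; how duplicates and multiple matches were handled is not given in the sources used here. Each line of a deposited file is a raw read count of 1 for 1 aligned read, without a sample name. Per the file headers each cell type is 1 pooled library, and the replicate test planned for separable samples was not made.

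Reads were assigned by 5′ end and strand to GENCODE models on NCBIM37 (mm9) with Python 3.11.15, numpy 2.4.6, pandas 2.3.3 and scipy 1.17.1. Variable exons were plus-strand open reading frames of at least 2000 bp. Of 61 found, 58 were named because their spacing from Pcdhb1 matched that in the RefSeq table for GRCm38.p6 within 600 bp, and 22 of 22 exons with their own gene model carried the same symbol. The 18 exons without an annotated start were counted from the first codon. Pcdhga1 and Pcdhga2 lie upstream of the annotated gamma span, and Pcdhb20 is annotated as a pseudogene.

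Start windows ran from 50 bp before to 300 bp after a start, and the comparison needed 20 reads at starts and in 5 kb bins and 50 over genes in 1 library. A feature was called at a 4-fold density ratio, with 3 reads standing for any lower count. RPKM used 8571395 MESC and 6571116 MEF reads outside the mitochondrial genome. Intergenic background was measured more than 10 kb from genes. Ratios and shares have 95% Clopper-Pearson intervals, and densities have Poisson intervals. The counting and calling code was tested on simulated data.

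Members and lists were chosen with earlier results of these data known. Named members were the 3 with most start reads per cluster and library, the C-type members, both ends of the beta cluster and neighbouring genes. From each related list the 4 largest ratios were named, whereas Smchd1 and further exons were chosen after seeing their values. Of 9 listed neural markers, the 8 found in the annotation were all named. The 32-base word count used the reference genome. Alternatives changed the scaling, duplicates, read length, word uniqueness, read minimum, fold, window, start and bin size.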

Additional observations from a re-analysis of the deposited data

How the results depend on the processing

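Of 109 values recomputed under other settings, 97 stayed within their limits and 12 moved. No span ratio changed sign. Many of the values that stayed were counts of starts or beta genes called, which were 0 at the main settings. So few starts and no beta gene had enough reads that these counts could hardly move under most settings. They therefore say little about robustness. Scaling by the median gene moved the gamma log2 MEF/MESC ratio from 0.23 to 0.48. The 5 kb bins called toward MESC fell from 5 to 3 with the shorter MESC reads alone, to 2 with the longer reads, to 2 with the read minimum doubled and to 3 in 10 kb bins. The 1 bin toward MEF became 0 with the longer MESC reads, 3 with no read minimum, 0 with the minimum doubled, 4 at 2-fold and 0 in 10 kb bins. With no read minimum 1 beta gene was called toward MEF in place of 0. The beta antisense share in MEF was 2.94% in place of 7.1% with only reads whose first 32 bases occur once in the genome. Fewer reads or bins entered under most of these settings by construction.

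With each position counted once, the gamma stretch from Pcdhga1 to Pcdhga7 was 1.19-fold denser in MESC (0.994 to 1.43), against 1.27-fold with all reads. Over Gm16882 the MESC excess ranged from 7.15-fold to 10.2-fold over the position, read-length and word settings. Starting the gamma span at Pcdhga1 and counting all 58 starts were chosen after seeing the data, and neither moved a value beyond its limits. No paired analysis was possible because the deposited reads cannot be assigned to single samples. For the same reason leaving out a replicate, edgeR and DESeq2 were not run. Depth limits the alpha and beta clusters, where single exons hold few reads.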
